A study of Homo sapiens with 3 samples.

Results

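The genes described here are the receptor tyrosine kinase gene RET, the co-receptor genes GFRA1, GFRA2, GFRA3, GFRA4 and GFRAL, and the ligand genes GDNF, NRTN, ARTN and PSPN. They were chosen by symbol, as the rows whose Ensembl identifier carries these names in GENCODE release 29, and all 10 were found among 59152 named genes. RNA was sequenced from SH-SY5Y, a human neuroblastoma line derived from the SK-N-SH line, in 3 libraries that form 1 group, for which the labels name no treatment. Each library came from its own T25 flask, in medium with serum, at about 60% confluency. All 3 are cultures of the same line, so the comparisons are between genes within a library. Spreads are those between flasks and include counting error. Levels are FPKM, read counts corrected for transcript length and for the mapped total of each library, which allows genes of different length to be set side by side.

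RET is a cell surface kinase that does not bind its ligands alone. Each ligand of the GDNF family is a dimer that first binds a co-receptor of the GFR alpha family, most of which are held to the membrane by a lipid anchor, and the complex then brings RET molecules together so that they phosphorylate each other. GDNF prefers the product of GFRA1, neurturin (NRTN) that of GFRA2, artemin (ARTN) that of GFRA3 and persephin (PSPN) that of GFRA4, while GFRAL is the brainstem receptor for the stress hormone GDF15. Signalling through RET is needed for enteric neurons, for the kidney and for parts of the sympathetic nervous system, the tissue from which neuroblastoma arises.

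The libraries carried the markers of the labelled line. All 8 noradrenergic neuroblast markers lay above 1 FPKM (102.6 to 2405 FPKM), whereas none of 6 immune and none of 4 endothelial markers did, with CD3E and CDH5 listed at 0. The summed immune markers came to 0.735 to 0.919 FPKM per library, the endothelial ones to 0.012 to 0.111, the 7 Schwann and glial ones to 8.18 to 10.5 and the 7 fibroblast ones to 109.9 to 121 FPKM. Of the last list 5 were above 1 FPKM, led by THY1 (60.1 ± 1.97 FPKM, SD, n = 3) and PDGFRB (29.8 ± 1.91), and of the glial list GFAP alone was above (3.62 ± 1.90 FPKM), and both THY1 and GFAP share exonic bases with genes on the other strand. The part of such cells in the levels below was not tested. Library depth, read off the spacing of low FPKM values, was about 21700000, 28400000 and 43400000 reads in replicates 1, 2 and 3.

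RET was the highest gene of the family by a wide margin. Its level was 68.8 FPKM in replicate 1, 81.9 in replicate 2 and 70.7 in replicate 3, a mean of 73.8 ± 7.12 FPKM (SD, n = 3). Replicate 2 was highest and the other libraries lay close together. The gene covers chromosome 10, 43077027 to 43130351 (GRCh38, plus strand), and has 6911 exonic bases in 7 annotated transcripts, which the gene-level values do not separate. At that length the values correspond to roughly 10015, 15619 and 20582 reads. Of 19680 protein-coding genes, 92.0% had a lower mean than RET, and its rank was 1720, 1349 and 1657 in the libraries. These are bulk libraries, in which fewer expressing cells and less RNA per cell cannot be told apart.

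Among 58 human receptor tyrosine kinase genes RET ranked first in each of the 3 libraries. Next came PTK7, a catalytically inactive Wnt co-receptor (64.8 ± 1.32 FPKM), and ALK, a receptor kinase gene recurrently mutated in neuroblastoma (50.2 ± 1.22). Differences from RET were taken on the log2(FPKM + 0.1) scale in each library and tested with limma over 31735 genes. PTK7 was lower in 3 of 3 libraries by a log2 difference of -0.18 ± 0.11 (limma adjusted p = 0.204), which did not pass the threshold of 0.05, and ALK was lower by -0.55 ± 0.10 (limma adjusted p = 0.0106). In all, 50 of the other kinase genes were called lower than RET, 0 were called higher, PTK7 was called neither and 6 were listed at 0. The background is steep here, since 92.2% of all genes tested were called lower than RET and 4.04% higher.

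**Figure D1:**
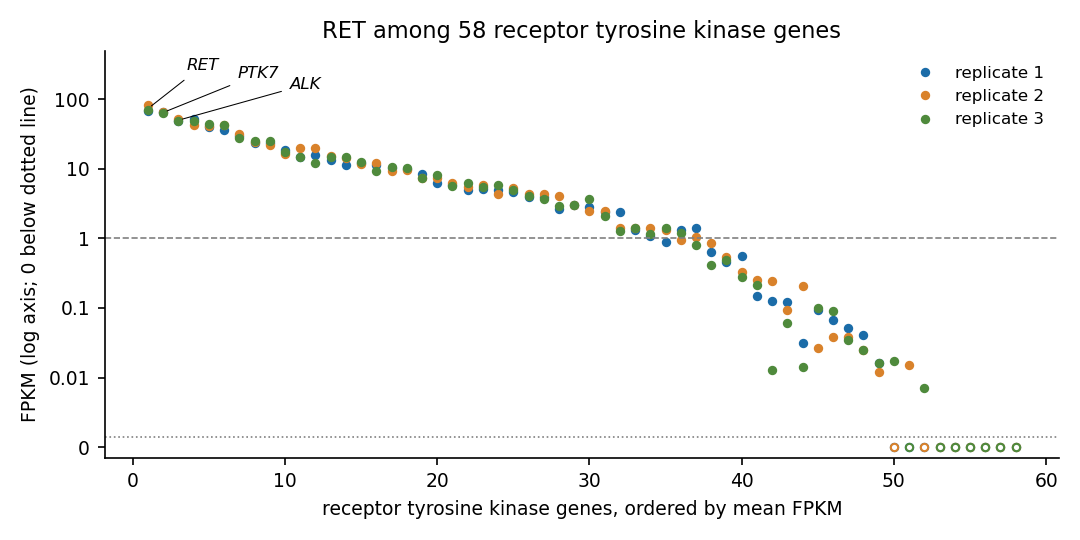
FPKM (log axis) of 58 receptor tyrosine kinase genes ordered by their mean, with 1 point per library, the dashed line at 1 FPKM and open points for values of 0. RET, PTK7 and ALK are the 3 highest, with means of 73.8, 64.8 and 50.2 FPKM.

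The co-receptor genes split into 2 at a few FPKM, 1 near the limit of detection and 2 listed at 0. GFRA2, the gene of the neurturin co-receptor (chromosome 8, 21690403 to 21812357, minus strand), had 2.72, 3.72 and 2.86 FPKM in replicates 1, 2 and 3. GFRA3, the gene of the artemin co-receptor (chromosome 5, 138252379 to 138274671, minus strand), had 2.88, 2.58 and 2.81 FPKM. The ranges of the 2 genes overlap, and GFRA2 was the higher in replicates 2 and 3 only. GFRA1, the gene of the GDNF co-receptor (chromosome 10, 116056925 to 116273467, minus strand), had 0.057, 0.087 and 0.064 FPKM. Over its 9678 exonic bases this is about 11.7, 23.4 and 26.3 reads, with exact 95% Poisson intervals of 6.20 to 21.0, 14.6 to 34.5 and 17.0 to 38.1 that cover counting error only. So GFRA1 reads were present in every library, at a level far below the other detected co-receptors.

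GFRA4 (chromosome 20, 3659292 to 3663399) and GFRAL (chromosome 6, 55327469 to 55402493) were listed at 0 in all 3 libraries. A listed 0 may mean that no reads were assigned or that the estimate failed. Had up to 3 reads been missed, GFRAL, with 1 annotated transcript, could have stood at up to 0.0808, 0.0617 and 0.0404 FPKM in replicates 1, 2 and 3, and GFRA4, over all 1517 exonic bases, at 0.105, 0.0801 and 0.0524, with a higher limit on its shorter transcripts. GDF15, the ligand of GFRAL, was present at 28.1, 56.0 and 52.0 FPKM, with replicate 1 lowest.

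Of the ligand genes, NRTN was highest and GDNF was listed at 0. NRTN (chromosome 19, 5823802 to 5828324, plus strand) had 3.77, 2.77 and 3.97 FPKM, or about 74.5, 71.7 and 157 reads over its 1109 exonic bases. PSPN (chromosome 19, 6375148 to 6379058, minus strand) had 1.095, 1.45 and 1.19 FPKM, and ARTN (chromosome 1, 43933320 to 43937241, plus strand) had 0.272, 0.42 and 0.215. The 3 detected ligands did not overlap: every NRTN value lay above every PSPN value, and every PSPN value above every ARTN value. For ARTN, whose values differ by a factor of 1.95 between the highest and lowest library, only about 14.5, 29.3 and 22.9 reads stand behind each value over 2658 exonic bases.

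GDNF (chromosome 5, 37812677 to 37839686, minus strand), the founding ligand and a survival factor for midbrain and motor neurons, had an FPKM of 0 in all 3 libraries. A floor of 3 reads over its 4273 exonic bases is 0.0339, 0.0259 and 0.0170 FPKM, and the floor is higher for its shorter transcripts. GDNF-AS1, which shares 526 exonic bases with it on the other strand, was also listed at 0. PSPN shares 104 of 3911 exonic bases with ALKBH7 on the other strand, and ALKBH7 was higher at 25.3 ± 3.42 FPKM. The kit keeps strand, but the sources used here do not say whether the counting did, so the PSPN level is uncertain. Its 3911 exonic bases also equal its gene span, and its coding transcripts run from 471 to 3911 bases. The PSPN level thus also depends on which transcripts were counted. None of the other members shares exonic bases with another annotated gene.

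**Figure D2:**
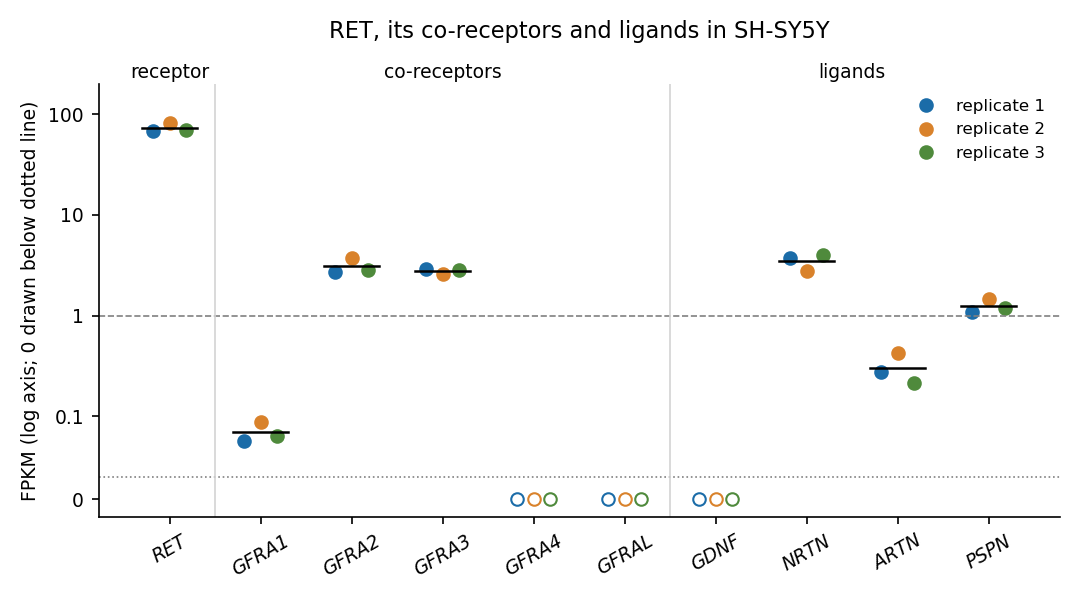
FPKM (log axis) of the receptor, co-receptor and ligand genes, with 1 point per library, a bar at each mean, a dashed line at 1 FPKM and open points for values of 0. RET stands at 73.8 FPKM and GFRA2, GFRA3 and NRTN at about 3, while GFRA4, GFRAL and GDNF are at 0 in all 3 libraries.

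Against a level of 1 FPKM, 4 of the 10 genes were called above by limma (RET, NRTN, GFRA2 and GFRA3), where 45.5% of all 31736 genes tested were. All 10 are protein-coding, and of the 16750 protein-coding genes tested 70.6% were called above and 24.6% below. GFRA1 and ARTN were called below, as were 43.7% of all genes tested, and the 3 genes listed at 0 did not enter the test. The log2 distance from the level was 6.07 for RET (SE 0.0891, limma adjusted p = 2.99e-05), 1.70 for NRTN (SE 0.139, limma adjusted p = 0.00124) and 1.53 for GFRA2 (SE 0.124, limma adjusted p = 0.00123). It was 1.38 for GFRA3 (SE 0.0740, limma adjusted p = 0.000397), -1.48 for ARTN (SE 0.178, limma adjusted p = 0.00367) and -2.70 for GFRA1 (SE 0.0877, limma adjusted p = 0.000106). PSPN was called neither, at a log2 distance of 0.28 (limma adjusted p = 0.0811) that turned to -0.17 when values were rescaled to TPM. The median of the 10 genes, with the 3 at 0 included, was 0.773 FPKM. Over the 7 tested it was 2.76 FPKM, against 1.08 over all genes tested and 9.13 over protein-coding genes tested.

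RET exceeded each of the other detected members in every library. NRTN lay below it by a log2 difference of -4.37 ± 0.40 (limma adjusted p = 5.36e-05), a ratio of means of 21.1. GFRA2 lay below it by -4.54 ± 0.10 (limma adjusted p = 1.15e-05), a ratio of 23.8, and GFRA3 by -4.69 ± 0.22 (limma adjusted p = 1.66e-05), a ratio of 26.8. PSPN (-5.78 ± 0.06), ARTN (-7.55 ± 0.26) and GFRA1 (-8.77 ± 0.01) were further away, with RET over gene ratios of 59.3, 244 and 1064. Every GFRA1 value lies below the pseudocount of 0.1, so its difference and small SD depend on that choice. With pseudocounts of 1 and 0.01 the GFRA1 difference was -6.12 and -9.88. All 6 were called lower than RET, a call that 92.2% of all genes tested share. Summed over the co-receptor genes the level was 5.66, 6.39 and 5.74 FPKM, so RET exceeded all of its co-receptor transcripts together by 12.2, 12.8 and 12.3 times in replicates 1, 2 and 3. That ratio varied less between flasks than the level of RET itself did.

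**Figure D3:**
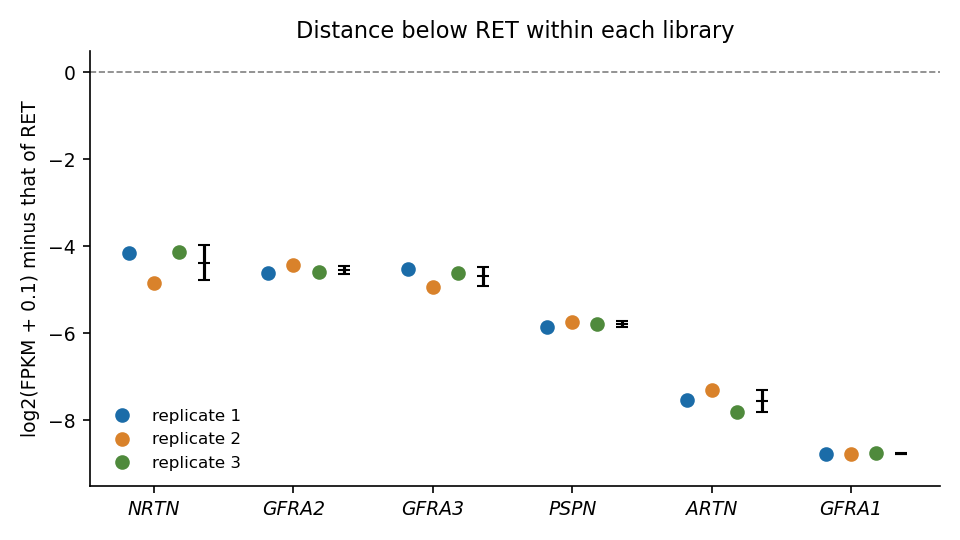
Difference of log2(FPKM + 0.1) between each detected member and RET within each library (points), with the mean and SD of the 3 libraries to the right of them. NRTN, GFRA2 and GFRA3 lie at -4.37, -4.54 and -4.69 with overlapping points, and GFRA1 lies at -8.77.

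In the order of levels, 4 of 6 neighbouring pairs differed by limma with the higher gene as the reference. The pairs called were RET over NRTN, GFRA3 over PSPN (log2 difference 1.09 ± 0.27, limma adjusted p = 0.00369), PSPN over ARTN (1.76 ± 0.24, limma adjusted p = 0.000426) and ARTN over GFRA1 (1.22 ± 0.27, limma adjusted p = 0.0218). The size of the last difference follows the pseudocount: GFRA1 minus ARTN was -0.28 with 1 and -1.94 with 0.01, called both times, and the ratio of means was 4.36. With ARTN as the reference, GFRA1 and PSPN had the same SE of 0.507. The limma adjusted p of 0.0218 therefore does not measure the spread of the ARTN and GFRA1 pair itself. With GFRA1 as the reference the SE was 0.154 (limma adjusted p = 0.00286). NRTN over GFRA2 (0.17 ± 0.50, limma adjusted p = 0.568) and GFRA2 over GFRA3 (0.15 ± 0.32, limma adjusted p = 0.512) differed by less than their spread. NRTN against GFRA3, a pair added after seeing the data, was higher in 3 of 3 libraries (0.32 ± 0.20) and was not called with either gene as the reference (limma adjusted p = 0.218 with NRTN and 0.0657 with GFRA3). It was called without replicate 2 (GFRA3 minus NRTN -0.43, limma adjusted p = 0.0461 with NRTN as the reference). Of all genes tested, 96.2% differed from RET, 90.6% from NRTN, 91.2% from GFRA2, 92.1% from GFRA3, 90.3% from PSPN and 77.9% from ARTN. All differences in such a fit share the values of the reference gene, and an exact sign-flip test (two-sided, 3 libraries, smallest possible p 0.25) gave p = 0.25 for the 4 pairs called. Leaving out replicate 1 ended the call for ARTN over GFRA1 (limma adjusted p = 0.0932), and NRTN over GFRA2 was called without replicate 2 (log2 difference 0.46, limma adjusted p = 0.0362).

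Each ligand was then set against the co-receptor it prefers. NRTN and GFRA2 were both present at similar levels: NRTN was higher in replicates 1 and 3 and GFRA2 in replicate 2, and the difference of GFRA2 from NRTN (-0.17 ± 0.50, limma adjusted p = 0.545 with GFRA2 as the reference) did not pass the threshold. It did without replicate 2 (limma adjusted p = 0.0370). GFRA3 exceeded ARTN in 3 of 3 libraries by 2.86 ± 0.44 (limma adjusted p = 0.000705), a ratio of means of 9.12. For the other pairs no difference was tested, because at least 1 partner was listed at 0: GDNF at 0 beside GFRA1 at 0.0693 ± 0.0157 FPKM, GFRA4 at 0 beside PSPN at 1.24 ± 0.183, and GFRAL at 0 beside GDF15 at 45.3 ± 15.1. NRTN made up 73.4%, 59.8% and 73.8% of the summed ligand FPKM, and GFRA2 48.0%, 58.2% and 49.9% of the summed co-receptor FPKM, in replicates 1, 2 and 3.

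The libraries differed more for some members than for others. These spreads include counting error, which was not separated from differences between flasks. RET had an SD of 0.14 on the log2 scale, above that of 79.3% of 2648 protein-coding genes within 0.5 to 2 times its level, whose median SD was 0.08. NRTN (0.27) also lay above the median of genes at its level (0.15), while GFRA3 (0.08 against 0.17) and GFRA1 (0.13 against 0.37) lay below theirs. GFRA1 rests on about 11.7, 23.4 and 26.3 reads, and the pseudocount narrows its log2 spread (coefficient of variation 22.6%). Genes at a like level were not matched for length or reads. Replicate 2 was the highest library for 5 of the 7 detected members (RET, GFRA2, PSPN, ARTN and GFRA1) and the lowest for NRTN and GFRA3. Of the 5 members averaging 1 FPKM or more it was highest in 3, and of 12208 protein-coding genes at that level in 31.0%.

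**Figure D4:**
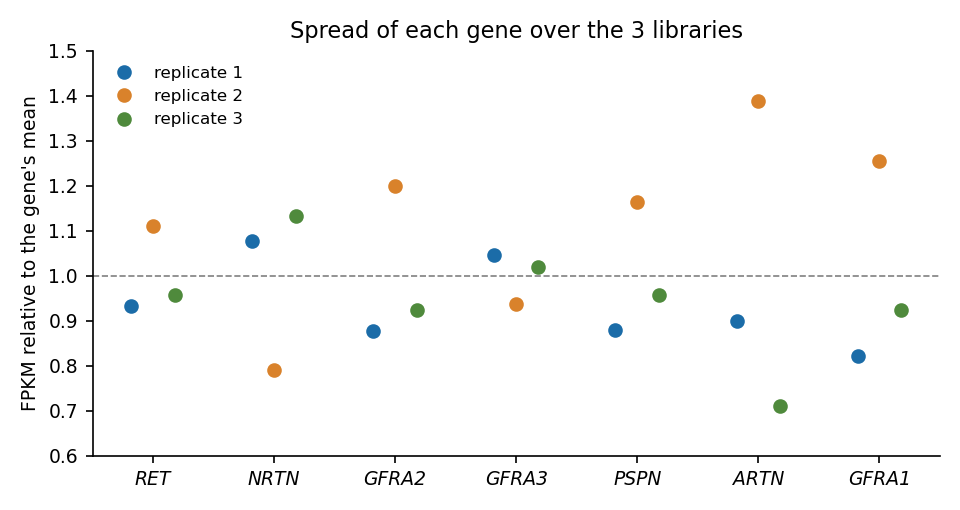
FPKM of each detected member in each library, divided by the gene's mean over the 3 libraries (dashed line at 1). Replicate 2 is the highest point for RET, GFRA2, PSPN, ARTN and GFRA1 and the lowest for NRTN and GFRA3.

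The protein-coding genes whose values were most like those of RET were found by the largest absolute log2 difference over the 3 libraries. They were LAMC1, a laminin chain gene (0.03), the aminopeptidase gene NPEPPS (0.03), WDR27 (0.03), the membrane raft gene FLOT2 (0.06) and TMEM256 (0.09). LAMC1 had 68.8, 80.5 and 71.8 FPKM. With 3 libraries of 1 group this likeness describes a shared level and little else.

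Shown here are stretches of genome just upstream of RefSeq starts. They belong to the receptor, the highest ligand, the ligand listed at 0 and co-receptors at a few FPKM and near 0. Each is the window from 250 to 51 bases before the most upstream RefSeq start (GRCh38.p14), read 5′ to 3′ on the gene's strand. Capitals mark the GC box GGGCGG on either strand, a motif bound by SP1 and SP3.
RET, chr10:43076819-43077018, plus strand: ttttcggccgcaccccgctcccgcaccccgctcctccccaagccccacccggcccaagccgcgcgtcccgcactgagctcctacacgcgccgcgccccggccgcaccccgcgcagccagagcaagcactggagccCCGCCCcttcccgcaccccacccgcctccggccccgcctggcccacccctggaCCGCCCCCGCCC
NRTN, chr19:5804817-5805016, plus strand: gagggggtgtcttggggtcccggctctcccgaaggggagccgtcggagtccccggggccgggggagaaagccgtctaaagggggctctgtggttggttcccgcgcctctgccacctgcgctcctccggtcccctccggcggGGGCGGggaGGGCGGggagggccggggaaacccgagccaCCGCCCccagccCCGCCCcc
GDNF, chr5:37840092-37840291, minus strand: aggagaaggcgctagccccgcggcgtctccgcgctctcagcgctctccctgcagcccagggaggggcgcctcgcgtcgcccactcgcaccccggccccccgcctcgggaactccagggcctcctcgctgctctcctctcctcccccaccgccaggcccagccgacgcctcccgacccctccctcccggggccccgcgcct
GFRA3, chr5:138274672-138274871, minus strand: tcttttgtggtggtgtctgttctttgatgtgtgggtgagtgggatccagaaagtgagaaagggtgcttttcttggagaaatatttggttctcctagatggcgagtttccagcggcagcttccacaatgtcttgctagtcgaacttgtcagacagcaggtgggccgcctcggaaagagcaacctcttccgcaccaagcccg
GFRA1, chr10:116274756-116274955, minus strand: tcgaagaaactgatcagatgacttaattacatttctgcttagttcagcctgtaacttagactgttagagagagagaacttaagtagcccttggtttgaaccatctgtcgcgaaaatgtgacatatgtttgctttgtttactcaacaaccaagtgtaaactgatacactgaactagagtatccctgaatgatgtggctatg

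The windows differ in base composition. The RET window held 25 CpG dinucleotides at 80% G and C with 3 GC boxes, and the NRTN window 19 at 77% with 4. The GDNF window held 23 CpG dinucleotides at 78% with 0 GC boxes, and the gene was listed at 0. Whether window composition goes with level was not tested. GFRA3 had 7 at 51.5% and GFRA1 3 at 38.5%, both with 0 GC boxes. Over 27305 such windows the median was 7 CpG dinucleotides and 56.5% G and C, and 34.5% held a GC box. GFRA4 and ARTN held 1 GC box each and PSPN 0. The windows of ARTN and PSPN, which are not printed, lie inside the genes as GENCODE 29 draws them. Members on chromosome 8 were left out of the window search, so GFRA2 was not read. GFRAL had no entry. The E-box CANNTG, a motif of basic helix-loop-helix factors, was found 0 times in RET and GDNF, 4 times in GFRA1, 2 times in PSPN and once in the other windows, against 55.1% of all windows with at least 1. The motif AGATAA, bound by factors such as GATA3, was in 0 of the 8 windows and in 7.845% of all windows. The core promoter motif TATAAA was also in 0 of the 8 and in 7.82% of all windows. The windows end 51 bases before the start, so a TATA box nearer to it was not searched for. Its absence from these promoters can therefore not be read from this count. Both strands were searched, and such matches describe letters only.

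Genes around the receptor were read against the same level of 1 FPKM. Among 16750 protein-coding genes in the test, 70.6% lay above it by limma and 24.6% below. Among all genes in the test these shares were 45.5% and 43.7%. The list counts that follow also include genes listed at 0, which these shares leave out. For the list of other receptors and binding partners around the pathway, the median of the 9 genes was 18.4 FPKM. Of these, 8 were called above 1 FPKM and 1 was called below, where 70.6% of protein-coding genes tested were above. NCAM1, the neural adhesion molecule that can serve as a GDNF receptor without RET, had 123, 123.8 and 125.7 FPKM and was called higher than RET (log2 difference 0.75, limma adjusted p = 0.00435). FYN, the kinase that signals behind it, was also called higher (112 ± 7.79 FPKM, log2 difference 0.61, limma adjusted p = 0.0132). The heparan sulfate proteoglycan gene SDC3, whose product binds GDNF, stood at 23.4 ± 1.98 FPKM, and the sorting receptor genes SORT1 and SORL1 at 18.4 ± 2.40 and 7.85 ± 1.62. MET stood at 2.99 ± 0.604 and LRIG1, a brake on receptor kinases that shares 907 exonic bases with SLC25A26 on the other strand (14.5 FPKM), at 2.35 ± 0.238. GAS1, a distant relative of the GFRA genes that can bind RET, was the member called below (0.659 ± 0.0963 FPKM, limma adjusted p = 0.0141).

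Of 24 adaptor genes whose products act behind active RET, 20 were called above 1 FPKM, 1 was called below and 3 were listed at 0, beside 70.6% above among protein-coding genes tested (median 23.4 FPKM). SHC1 (335 ± 9.37 FPKM), which links RET to RAS, PLCG1 (191 ± 10.2), the phospholipase that docks on RET, and GRB2 (123 ± 13.97) were the highest, and these 3 were called higher than RET. DOK4 (76.0 ± 4.66), SOS1 (61.7 ± 4.42) and PTPN11 (61.6 ± 2.30), which shares 111 exonic bases with the highly expressed RPL6 on the other strand, were called neither higher nor lower than RET. GRB10 was called below 1 FPKM (0.0317 ± 0.0376), with 0.075 FPKM in replicate 1 and 0.008 and 0.012 in the others, and DOK2, DOK5 and GRB7 were listed at 0. Among the DOK adaptors of RET, DOK4 and DOK6 (13.0 ± 0.149) were therefore the ones present, with DOK1 (9.22 ± 1.26), while DOK2 and DOK5 were at 0. DOK1, DOK4 and DOK6 each share exonic bases with a gene on the other strand, as CBL does with MCAM. That overlap makes these levels uncertain, as it does for PSPN.

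Genes that end or restrain RET signalling had a median of 13.3 FPKM, and 9 of 11 were called above 1 FPKM and 1 was called below, beside the same 70.6% above and 24.6% below. The phosphatase genes PTPRF (61.5 ± 1.81 FPKM) and PTPRA (45.4 ± 0.739) and the endosomal adaptor gene GGA3 (34.2 ± 1.19) were highest, where PTPRA and GGA3 share exonic bases with VPS16 and MRPS7. The ubiquitin ligase gene CBL stood at 14.9 ± 1.61 FPKM and its paralog CBLB at 15.9 ± 0.602. CBLC was listed at 0 and PTPN6, a phosphatase of blood cells, was called below (0.107 ± 0.0992). None of this list was called higher than RET, and PTPRF was called neither.

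Feedback and response genes of the ERK pathway, which RET and many other receptors feed, had a median of 22.2 FPKM, and 11 of 12 were called above 1 FPKM while 0 were called below, beside 70.6% and 24.6% of protein-coding genes tested. DUSP6, a phosphatase that switches ERK off, had 62.4, 61.0 and 62.2 FPKM, and DUSP4 followed at 45.6 ± 8.76. The transcription factor gene ETV5, which acts downstream of RET in the kidney, stood at 41.7 ± 6.37 FPKM and its paralog ETV4, which shares exonic bases with DHX8, at 34.3 ± 1.94. DUSP5 was called neither (0.717 ± 0.224 FPKM, limma adjusted p = 0.0844). No library without RET signalling was measured, so these levels cannot be tied to RET over other receptors.

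Transcription factor genes linked to RET or its lineages were uneven, with 9 of 13 called above 1 FPKM, 1 below and 3 listed at 0 (median 21.7 FPKM). That share above is near the 70.6% of protein-coding genes tested. HAND2 (454 ± 9.18 FPKM), GATA3 (286 ± 16.1) and ISL1 (103 ± 2.50), factors of sympathetic neurons, were the highest and were called higher than RET, although HAND2 shares 867 exonic bases with HAND2-AS1 on the other strand (427 ± 9.34). TLX2, a homeobox gene of enteric neurons, stood at 39.1 ± 1.81 FPKM, and SP3 and SP1, factors known to bind GC boxes, at 35.8 ± 5.06 and 21.7 ± 0.753. SOX10 and PAX3, which act on RET in the enteric crest, were at 0.0113 ± 0.0196 FPKM and listed at 0, and HOXB5 and NKX2-1 were listed at 0 as well.

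Genes other than RET, GDNF and NRTN that are linked to Hirschsprung disease, the loss of enteric neurons for which RET is the main gene, gave 7 of 13 called above 1 FPKM, 5 below and 1 neither (median 3.64 FPKM), beside 70.6% above and 24.6% below among protein-coding genes tested. TCF4 (157 ± 3.90 FPKM), the adhesion gene L1CAM (105 ± 5.22) and the guidance gene SEMA3C (91.4 ± 2.23) were highest. The endothelin axis was incomplete: ECE1, the gene of the processing enzyme, stood at 21.996 ± 1.71 FPKM, whereas the receptor gene EDNRB (0.247 ± 0.0417) and the ligand gene EDN3 (0.00533 ± 0.00924) were called below. NRG3, which shares 78 exonic bases with NRG3-AS1, was called neither (1.15 ± 0.0118 FPKM, limma adjusted p = 0.0666). Over the 81 genes of the 6 lists, 64 were called above 1 FPKM and 8 below, beside 70.6% and 24.6% of protein-coding genes tested. Of the 81, 10 were called higher than RET, beside 4.04% of all genes tested, which include noncoding genes. By mean level, RET exceeded 92.0% of 19680 protein-coding genes. Nothing particular to the lists is read from these counts.

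**Figure D5:**
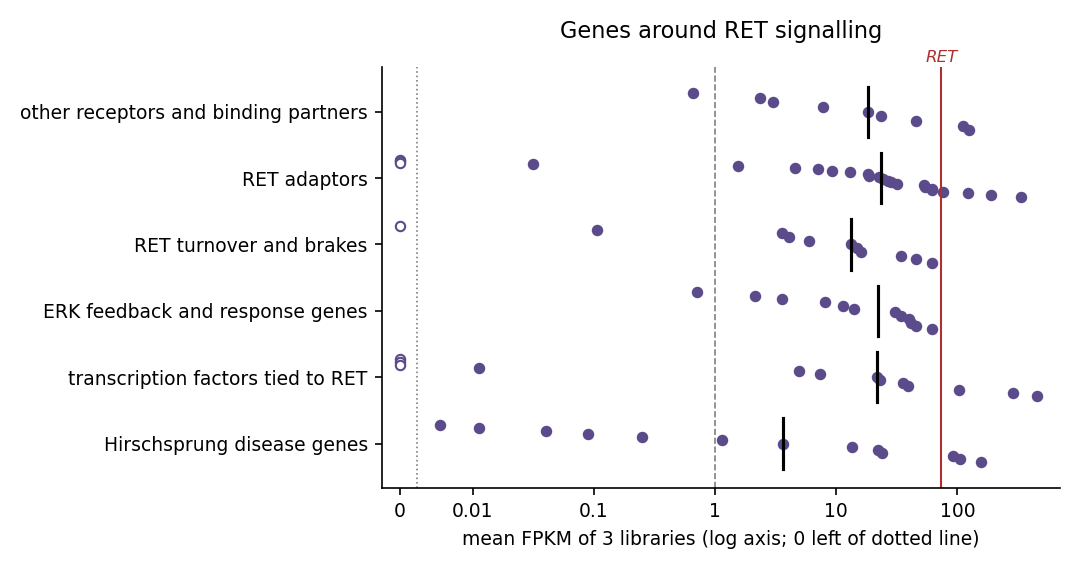
Mean FPKM over 3 libraries (log axis) of the genes in 6 lists around RET signalling, with 1 point per gene, open points for genes listed at 0, black bars at list medians, a dashed line at 1 FPKM and a red line at RET (73.8 FPKM). The medians lie between 3.64 and 23.4 FPKM, left of RET in every list.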

How the data were processed

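The authors deposited 1 table of FPKM values per gene and library for 3 libraries of SH-SY5Y cells, made per the labels' protocols and the series' design text from 500 ng of total RNA with a stranded mRNA kit and read as 50-base single reads. Tools listed in the submitters' processing notes are TopHat2 2.1.1, Cufflinks 2.2.1, FastQC 0.10.1 and bcl2fastq, with the build hg38. Tool settings, the annotation release and the strand setting: not given in the sources used here.

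Of 60660 identifiers, 57046 matched GENCODE 29. A name shared by several identifiers took the one with the highest mean. Tested were genes above 0 in any library with values in at least 2. The test used log2(FPKM + 0.1) and limma 3.58.1 under R 4.3.3 (a model of the mean alone, two-sided, Benjamini-Hochberg over all genes tested, threshold 0.05), against 1 FPKM or against a reference gene within the library. This scale understates differences of low genes. On simulated data the test against 1 FPKM (31617 genes) placed 69% of genes lying 0.5 log2 away and 87% of those lying 1 log2 away on the right side and called 4% of those at the level. Against RET (31634 genes) these shares were 70%, 96% and 7%. Data were simulated once per comparison, and all genes set against RET shared the same simulated RET values. Genes moved to a new level kept the spread of their old level, so the shares are rough.

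Depth was estimated from genes with 1 transcript of at least 600 bases: with an assumed fragment of 200 bases, low values fell on whole reads to within 0.1 for 97.5%, 97.5% and 97.4% of values (20% by chance). Reads behind a gene use its exonic length, so they are upper estimates where a gene has shorter transcripts. Promoter windows came from RefSeq (GRCh38.p14). Other software was matplotlib 3.10.9, scipy 1.17.1, pandas 2.3.3, numpy 2.4.6 and Python 3.11.15.

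The members and gene lists were chosen with earlier results of these data known. Named genes were all members, genes overlapping them, and the 3 highest, the lowest and the undecided genes of each list. Also named were all other receptors and binding partners, RET's 2 nearest kinases and the 5 genes closest to RET. Other listed genes that are named were chosen after their values were seen. The separate flasks are the replicates, and p-values rest on the spread between them, which limma moderates over all genes tested. With ARTN as the reference, the moderated spread was the same for GFRA1 and PSPN, so those p-values do not measure each pair's own spread.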

Additional observations from a re-analysis of the deposited data

How the results depend on the processing

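At a level of 5 FPKM 1 member (RET) was called above and 6 below, with NRTN at -0.52, GFRA2 at -0.69, GFRA3 at -0.84 and PSPN at -1.93 on the log2 scale. Below 1 FPKM, 1 member was called with a minimum mean of 0.1 FPKM, which removes GFRA1 from the test, and 5 with no filter, which adds the 3 genes listed at 0. Rescaling to TPM shifted all genes of a library alike, by -0.47, -0.54 and -0.46 on the log2 scale in replicates 1, 2 and 3, and PSPN turned to -0.17 (limma adjusted p = 0.174). With each library left out in turn, the co-receptor and ligand pairs called ranged from 1 to 2, the higher count without replicate 2, and GFRA3 minus GFRA2 ranged from -0.27 to 0.027, turning without replicate 2. RET stood within the top 7.97% of protein-coding genes and the top 2.97% of all genes. The pseudocount sets the size of low values but moved no call among the members. With 1 and 0.01, GFRA1 stood at -0.90 and -3.69 and ARTN at -0.62 and -1.75 against 1 FPKM. PSPN stood at 0.16 and 0.30 and GFRA3 at 0.91 and 1.45. ARTN minus PSPN was -0.79 and -2.05, and ARTN minus GFRA3 was -1.53 and -3.20. In the pathway lists, 65 genes were called above 1 FPKM with a pseudocount of 1, against 64 in the main run. With the lower gene as the reference, an alternative chosen after seeing the data, 4 neighbouring pairs were called again. Of the summary values under the alternatives run, 58 stayed close to the reported value and 6, all given here, did not. Close still lets a count move: the neighbouring pairs called ranged from 3 to 5. With no filter, 9 members were called lower than RET, against 6 in the main run. At a level of 0.5 FPKM, 5 members were called above, with PSPN added at 1.16 (limma adjusted p = 0.00194). No paired analysis was possible because the libraries form 1 group. At these depths 3 reads correspond to 0.00729 (GFRA1, replicate 3) to 0.152 FPKM (NRTN, replicate 1), so levels under about 0.1 FPKM rest on few reads.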

Other observations

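NRTN has different starts in the annotations used. RefSeq places its first base at chromosome 19, 5805067, which is 18735 bases upstream of the GENCODE 29 start, so the NRTN window printed above lies far from the gene as GENCODE 29 draws it. The sources used here do not say which start the authors' annotation had, and the NRTN level and its estimated reads rest on that choice. For GDNF the RefSeq start lies 355 bases upstream of the GENCODE 29 start, for GFRA1 1238 bases, and for GFRA4 the 2 annotations share the start.

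GDF15 had the widest range among the other receptors and binding partners, with 28.1 FPKM in replicate 1 against 56.0 and 52.0 in the other flasks. Its coefficient of variation was 33.3%, against 9.65% for RET.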
